A study of Mus musculus with 35 samples.

Results

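The genes described here are 9 transporters, channels and enzymes of ion and water transport in the epithelium of the colon, whose surface absorptive cell is the colonocyte: *Slc26a3*, *Car1*, *Car4*, *Aqp8*, *Scnn1b*, *Slc9a3*, *Cftr*, *Slc12a2* and *Atp12a*. They were taken by symbol and were 9 of the 55356 genes counted. All 9 passed the filter on low counts, which left 29911 genes for testing. The libraries came from adult C57BL/6J mice, a common inbred laboratory strain, and no allele or treatment was listed for any group. RNA-seq was made from brain, cerebellum, heart and colon of females and of males, from ovary and from testis, in 10 groups of 3 libraries, or 2 for male heart. Ribosomal RNA had been removed and the libraries kept the strand of the RNA. Colon was represented by 6 libraries and the other tissues by 23. The labels do not say which libraries came from the same animal, or from which stretch of the colon the tissue was cut, so *P* values measure the spread between these libraries, and the tissue was whole colon rather than sorted cells.

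The colonocyte takes up sodium, chloride and water from the gut contents, and cells of the crypt secrete chloride and fluid. Electroneutral salt uptake pairs a sodium/proton exchanger (*Slc9a3*, NHE3) with a chloride/bicarbonate exchanger (*Slc26a3*, DRA), and carbonic anhydrases supply the protons and bicarbonate that both exchange. In the distal colon the epithelial sodium channel, with *Scnn1b* as its beta subunit, takes up sodium under aldosterone, and the colonic proton/potassium pump *Atp12a* takes up potassium. Secretion begins with basolateral chloride entry through the cotransporter *Slc12a2* (NKCC1) and ends with chloride exit through the apical channel *Cftr*. *Aqp8* is a water channel of the surface epithelium.

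Of the 9 genes, 6 were counted under loci that the long-read (Iso-seq) annotation had placed on GRCm38. *Slc26a3* lay on chromosome 12 at 31438217-31473917, *Car4* on chromosome 11 at 84957829-84966039, *Aqp8* on chromosome 7 at 123461032-123468003 and *Cftr* on chromosome 6 at 18170750-18322767, each on the plus strand. *Car1* lay on chromosome 3 at 14765984-14778459 on the minus strand, and *Slc12a2* was the sixth. The loci of *Slc26a3* and *Car1* began well downstream of their GENCODE starts, 31390871 and, on the minus strand, 14808368. *Scnn1b*, *Slc9a3* and *Atp12a* had no Iso-seq locus and were counted by their ENSEMBL models, on chromosomes 7, 13 and 14. Exons of *Slc9a3*, *Cftr* and *Atp12a* overlapped genes on the opposite strand (*Cep72* over 235 bases, *Gm15592* over 129 bases and *Gm10873* over 557 bases). Whether reads were counted by strand is not stated in the sources used here, so reads in these stretches may come from either gene.

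RefSeq promoter entries (GRCm38.p6) existed for *Slc26a3*, *Car4*, *Aqp8*, *Cftr*, *Scnn1b* and *Slc9a3*. The 250 bases before the start of *Slc26a3* and of *Car4* are shown because both genes were higher in colon while *Car4* was also expressed in the nervous system. They lie at chr12:31437969-31438218 and chr11:84957504-84957753, both on the plus strand. Capitals mark matches to GTTAAT, which is part of the HNF1 motif, and to TATAAA.
Slc26a3: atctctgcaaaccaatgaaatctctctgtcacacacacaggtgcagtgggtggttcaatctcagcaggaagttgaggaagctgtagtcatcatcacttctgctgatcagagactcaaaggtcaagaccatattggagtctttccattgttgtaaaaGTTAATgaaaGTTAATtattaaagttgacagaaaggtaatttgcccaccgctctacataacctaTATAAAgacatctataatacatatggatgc
Car4: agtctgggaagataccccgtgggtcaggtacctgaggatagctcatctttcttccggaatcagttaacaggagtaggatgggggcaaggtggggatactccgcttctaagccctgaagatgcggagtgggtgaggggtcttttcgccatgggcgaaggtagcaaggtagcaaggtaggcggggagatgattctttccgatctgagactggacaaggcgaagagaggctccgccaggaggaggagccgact
The *Slc26a3* window held GTTAAT at positions -94 and -84 and TATAAA at -30, counted from the start, and was 38.8% G and C. The *Car4* window held no match and was 56.4% G and C, beside a median of 52.4% over all promoters. Of 32536 windows of this length, 6.47% held GTTAAT and 12.3% held TATAAA on either strand. The CDX motif TTTATNG (9.74% of windows), the HNF4 motif CAAAGTNCA (1.20%) and the GATA motif AGATAA (9.97%) were in none of the 6 windows. Only these exact letters were looked for, and the *Aqp8* window lay inside its Iso-seq locus. A match describes letters and not a bound site.

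The labels were checked with marker lists before the members were compared. Total counts ran from 11742417 to 18890658 in colon and from 11742417 to 36194255 over all 29 libraries, so colon was the shallowest tissue. All 10 listed epithelial genes reached a mean of at least 1 FPKM in colon, where their summed level was 3975 to 6882 FPKM, against 4.90 to 350 FPKM in the other tissues. FPKM here is CPM, the counts scaled to the library total, per kilobase of exon. A small intestine list (*Sis*, *Lct*, *Alpi*, *Fabp6*, *Slc10a2*, *Apoa4*) summed to 495 FPKM in female colon 1 and 403 in male colon 3, but to 33.3 to 77.5 in the other colon libraries, so these 2 libraries stood apart and results are also given without them. Male colon 1 had the lowest epithelial sum and the highest smooth muscle sum, 14966 FPKM against 5285 to 9831 in the other colon libraries. Female heart 3 had an immune cell sum of 94.2 FPKM against 12.6 to 15.3 in the other heart libraries, and an epithelial sum of 78.4 against 16.6 to 23.9. Most of that epithelial sum was the keratin *Krt19* at 65.7 FPKM, while in every heart library *Epcam* was at most 0.0437, *Cdh1* at most 0.566, and *Cdx1* and *Cdx2* at most 0.0289 and 0.0176. Its heart marker sum was 12550 FPKM against 24542 to 35065, its smooth muscle sum 714 against 1173 to 1472 and its red cell sum 6294 against 7903 to 22155. In whole tissue, a change in the share of a cell type and a change in RNA per cell cannot be told apart.

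The first question was how far these genes separate colon from the other tissues. *Slc26a3*, *Car1*, *Car4*, *Aqp8*, *Slc9a3* and *Cftr* were higher in all 6 colon libraries than in any of the other 23. Across all genes tested, 6.52% separated in this way. Against the mean of the other 5 tissues, 9 of 9 members were called higher in colon, where 28.2% of all genes were. The members' median log2 difference was 5.34, and the median over all genes was -0.38 (-0.23 with the size factors of DESeq2, so the main scale places differences lower by the gap between these values). *Car1* had the largest difference on the log2 scale, 13.73 (SE 0.34), followed by *Aqp8* with 10.99 (SE 0.24) and *Slc26a3* with 10.34 (SE 0.21). *Slc12a2* had the smallest, 1.57 (SE 0.12, adjusted *P* = 2.45e-11). All 9 were also called higher with both colon libraries that carried small intestine markers left out. Because this comparison averages 5 tissues, a gene can pass it while being as high elsewhere, and each tissue was therefore tested on its own.

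Tissue by tissue, the number of members called higher in colon was 9 against brain (29.6% of all genes), 7 against cerebellum (28.9%), 9 against heart (28.9%), 8 against ovary (21.4%) and 7 against testis (29.6%). None was called lower. *Scnn1b* and *Slc12a2* missed the threshold against cerebellum, *Atp12a* against ovary, and *Scnn1b* and *Atp12a* against testis. The members' median log2 difference ran from 5.12 against testis to 6.43 against cerebellum. *Atp12a* had no count in cerebellum and heart, where its fitted value depends on the prior count. With it at the bound that 3 counts over the group allow, the medians were 4.64 against cerebellum and 5.12 against heart (5.82 as fitted).

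**Figure D1:**
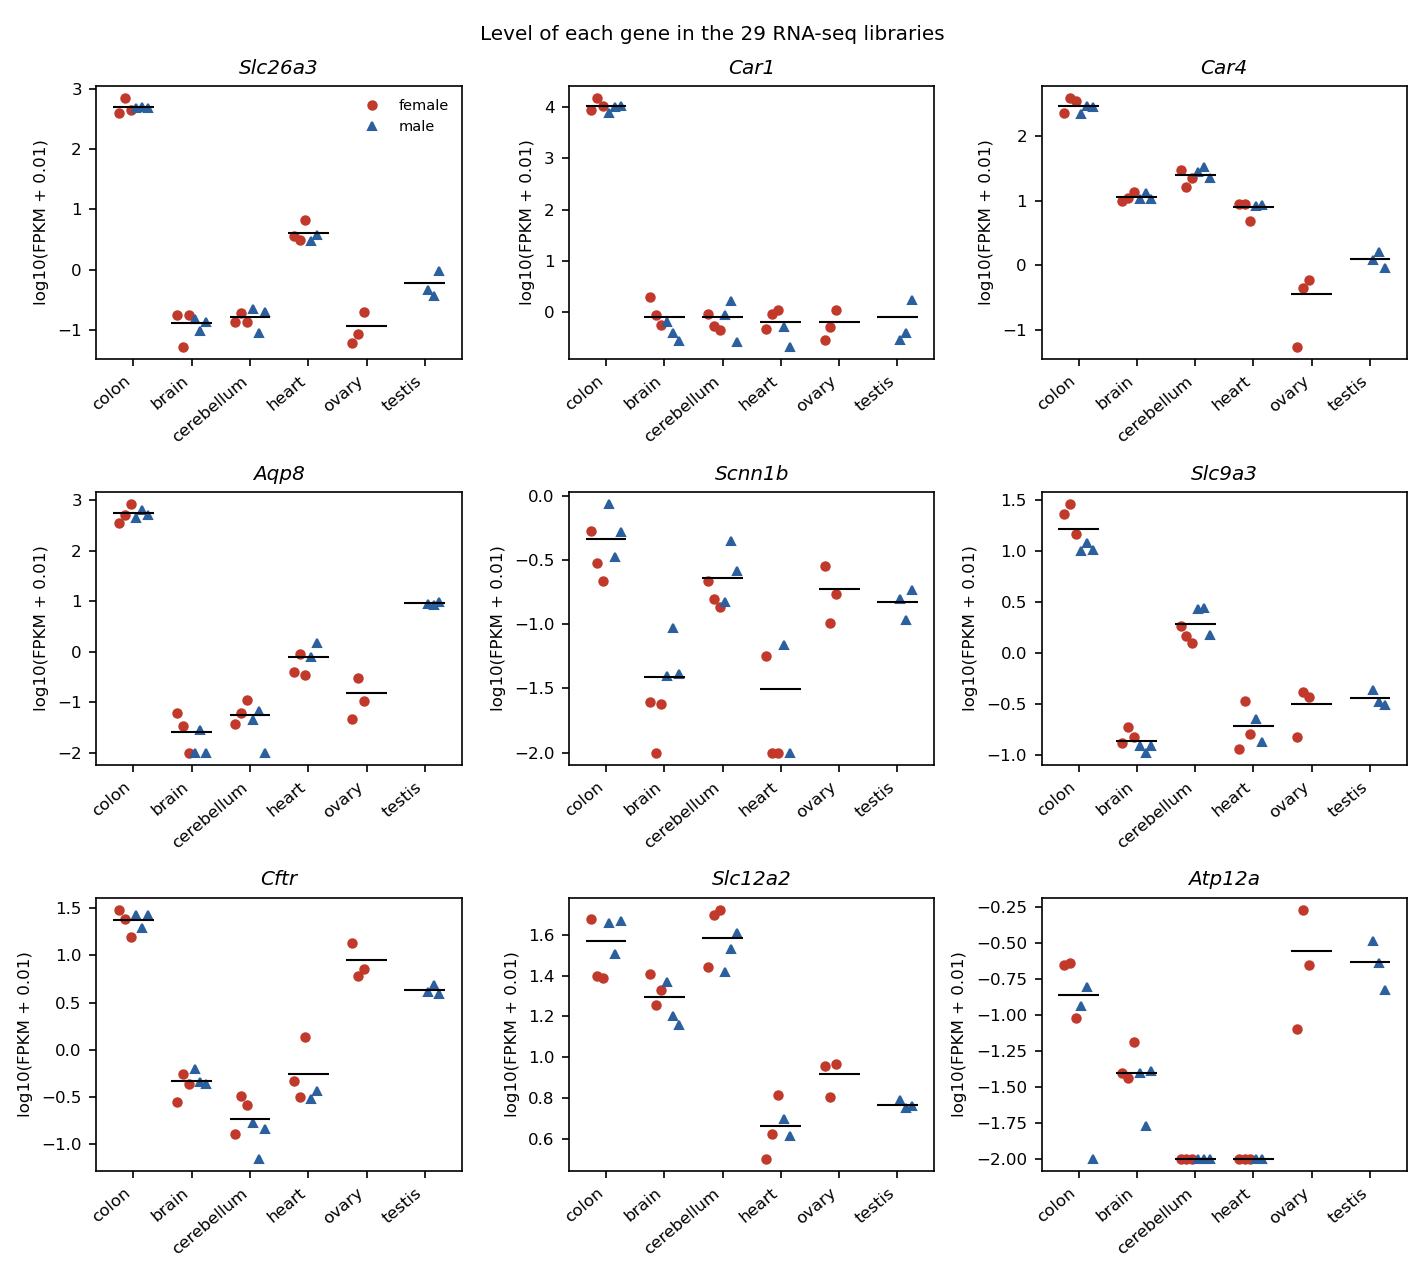
Level of each of the 9 genes in each of the 29 libraries, by tissue, as log10 of FPKM plus 0.01 (vertical axis, a different range in each panel). Circles are female and triangles male libraries, and a bar marks the tissue mean. For Slc26a3, Car1, Car4, Aqp8, Slc9a3 and Cftr all 6 colon points lie above every other point, while Slc12a2 is as high in cerebellum and Atp12a is higher on average in ovary and testis.

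Among the apical exchangers, *Slc26a3* reached 495 ± 101 FPKM in colon (SD, n = 6), with a lowest value of 395, a median of 473 and a highest of 689. It ranked 62 of 21734 protein-coding genes in colon and took 0.127 to 0.221% of the counts. Heart came next with 3.67, 3.16 and 6.66 FPKM in the female and 2.98 and 3.72 in the male libraries, on 187 to 512 counts each. Heart was therefore above all libraries of the remaining tissues, and colon was 87.9-fold above heart (95% interval 56.0 to 138, adjusted *P* = 4.12e-15). Female heart 3, which held the highest heart value, was also the library with high immune markers and *Krt19* and low heart, smooth muscle and red cell markers. The part of those cells in its value was not tested. The other 4 heart libraries still lay at 2.98 to 3.72, above the 0.363 to 0.964 FPKM of testis. In brain, cerebellum and ovary the gene lay between 0.0438 and 0.213 FPKM, and neighbouring tissues there overlapped.

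*Slc9a3*, the sodium side of the same uptake, was lower and more variable, 16.3 ± 7.66 FPKM in colon (SD, n = 6), with a lowest value of 9.94, a median of 13.2 and a highest of 28.5. Its lowest colon library was 3.63-fold above the highest other library, male cerebellum 2 with 2.74 FPKM. Cerebellum was the next tissue, at 1.91 ± 0.656 FPKM (SD, n = 6) on 183 to 357 counts, and its libraries did not overlap those of the remaining tissues, which lay at 0.0954 to 0.421. The log2 difference between colon and cerebellum was 3.03 (SE 0.25, adjusted *P* = 4.69e-11). Part of the *Slc9a3* exons is shared with *Cep72* on the other strand, and the share of its cerebellar counts that comes from there was not tested.

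*Scnn1b*, the beta subunit of the epithelial sodium channel, was scarce in every tissue. Colon held 0.449 ± 0.230 FPKM (SD, n = 6), from 8 to 42 counts per library, with a lowest value of 0.206, a median of 0.418 and a highest of 0.844 in male colon 1. Cerebellum followed with 0.217 ± 0.116 FPKM (SD, n = 6), from 0.126 to 0.434, so the ranges overlapped and 3 of 6 colon libraries lay above all others. The gene was called higher in colon than in brain (log2 difference 3.99, SE 0.61) and heart (3.65, SE 0.69), where it had 0 to 8 counts per library. Against ovary the difference was 1.61 (SE 0.63, adjusted *P* = 0.0378), and without both libraries with small intestine markers it was 1.45 with an adjusted *P* of 0.0875. Leaving out ovary 2, ovary 3, female colon 1 or male colon 1 also ended that call, with log2 differences of 1.31, 1.59, 1.42 and 1.42. Against cerebellum and testis the differences were 1.02 (95% interval 0.019 to 2.01, adjusted *P* = 0.0678) and 1.27 (95% interval -0.012 to 2.54, adjusted *P* = 0.0704), and both were called with DESeq2 (adjusted *P* = 0.00695 and 0.0239).

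*Atp12a*, the alpha subunit of the colonic proton/potassium pump, was at the edge of detection. Colon libraries held 0 to 15 counts, 49 in all, or 0.128 ± 0.0829 FPKM (SD, n = 6), with a median of 0.126 and no count in male colon 3. Ovary held 0.0690, 0.520 and 0.213 FPKM and testis 0.315, 0.217 and 0.138 FPKM, and both overlapped colon. The log2 difference was -0.87 against ovary (95% interval -2.27 to 0.53, adjusted *P* = 0.313) and -1.20 against testis (95% interval -2.59 to 0.20, adjusted *P* = 0.115). Leaving out ovary 2 turned the difference against ovary to 0.052. Brain was lower, with 1 to 6 counts per library (log2 difference 1.95, SE 0.65, adjusted *P* = 0.0130), though leaving out male colon 2 gave 1.62 and an adjusted *P* of 0.0509. In cerebellum and heart all 11 libraries had 0 counts, and colon was at least 24.9-fold and at least 19.6-fold higher, taking pooled colon FPKM over a floor of 3 counts per group. The call of this gene against the mean of the other tissues rests on brain, cerebellum and heart. Distal colon markers were low in these libraries, with *Hoxa13* at 0.152 to 1.87 FPKM and *Hoxb13* at 0 counts, and their list sum and *Atp12a* agreed in order only in part. Female colon 2 was highest (1.89 FPKM) and male colon 3 lowest (0.152) for both, but male colon 1, second for the list with 1.05 FPKM, held 0.105 FPKM of *Atp12a*, and female colon 1 held 0.212 beside a sum of 0.792. The part of the sampled segment in the *Atp12a* level was not tested.

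The carbonic anhydrases interconvert carbon dioxide and bicarbonate, *Car1* in the cytosol and *Car4* tethered to the outer face of the membrane. *Car1* had the highest FPKM of all 21734 protein-coding genes in colon. It stood at 10350.4 ± 2465 FPKM (SD, n = 6), with a lowest value of 7579.9, a median of 10262 and a highest of 14771, and took 1.07 to 2.09% of all counts. In the other 23 libraries it ran from 0.206 to 2.01 FPKM, and the ranges of brain, cerebellum, heart, ovary and testis all overlapped. Log2 differences were 13.32 against testis to 14.21 against ovary, the narrowest range over tissues of any member. *Car1* is also a gene of red cells, whose 5 listed markers were low in colon, with sums of 24.2 to 78.9 FPKM against 6294 to 22155 in heart. *Car1* itself was 0.206 to 1.12 FPKM in heart. The part of red cells in the colon level was not tested.

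*Car4* was less confined to colon than *Car1*. Its colon level was 290.1 ± 65.7 FPKM (SD, n = 6), with a lowest value of 216, a median of 287 and a highest of 382. Cerebellum held 25.3 ± 6.08 (SD, n = 6), brain 11.5 ± 1.52 (SD, n = 6) and heart 7.88 ± 1.70 FPKM (SD, n = 5), and each of these tissues was apart from the next in all libraries. Testis had 1.22, 1.603 and 0.913 FPKM and ovary 0.0458, 0.432 and 0.589. Colon was 11.5-fold above cerebellum (95% interval 7.84 to 16.8, adjusted *P* = 9.64e-12) and 904-fold above ovary (95% interval 428 to 1911). The FPKM ratio of *Car1* to *Car4* was 30.0 to 38.6 in the 6 colon libraries and 0.0116 to 0.0511 in cerebellum, so that *Car4* was above *Car1* in cerebellum and below it in colon. *Car2*, another cytosolic enzyme, was named after its values were seen and held 67.5 ± 18.6 FPKM in cerebellum, above *Car4*, and 134 ± 26.0 in colon, below it (SD, n = 6 each). For *Car1* to *Slc26a3* the ratio was 16.1 to 23.3 in colon and 0.0553 to 0.295 in heart, but the ranges of brain (2.04 to 19.8) and cerebellum (1.36 to 21.2), where both genes were scarce, overlapped that of colon.

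*Aqp8* reached 551 ± 166 FPKM in colon (SD, n = 6), with a lowest value of 361, a median of 517 and a highest of 833, and ranked 53 among protein-coding genes. Testis was second with 8.97, 8.44 and 9.66 FPKM on 384 to 447 counts, above all libraries of heart (0.332 to 1.45 FPKM), ovary, cerebellum and brain. Colon was 48.4-fold above testis (95% interval 28.0 to 83.6, adjusted *P* = 1.26e-12). In brain the gene had 4 counts over 6 libraries and in cerebellum 10, so the log2 differences of 14.80 (SE 0.47) and 13.54 (SE 0.44) rest on very few reads on the low side.

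The secretory genes gave a different order of tissues. *Cftr* was 23.7 ± 5.26 FPKM in colon (SD, n = 6), with a lowest value of 15.6, a median of 25.3 and a highest of 29.8. Ovary came next with 13.3, 6.07 and 7.19 FPKM and testis followed with 4.13, 4.84 and 3.90. Ovary 1, the highest, also had the highest epithelial sum, 350 FPKM against 215 and 186 in ovary 2 and 3, and the lowest smooth muscle sum, 1521 against 3132 and 3055. Its ovary marker sum was the lowest, 73.9 against 128 and 101, and its dividing cell sum the highest, 124 against 104 and 87.2. The part of these cells in its *Cftr* level was not tested. The lowest colon library was only 1.17-fold above the highest ovary library, but the difference was called, with a log2 value of 1.73 (SE 0.30, adjusted *P* = 2.72e-05) against ovary and 2.11 (SE 0.31, adjusted *P* = 9.99e-07) against testis. In brain, cerebellum and heart *Cftr* lay between 0.0610 and 1.34 FPKM. The highest of these was female heart 3, and the other 4 heart libraries lay at 0.295 to 0.455.

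*Slc12a2* had its highest mean in cerebellum, and it and *Atp12a* were the 2 members whose mean was higher in another tissue than in colon. Its Iso-seq locus lay on chromosome 18 at 57899258-57946820 on the plus strand and began downstream of the GENCODE start of the gene, 57878678. Cerebellum held 38.3 ± 11.1 FPKM (SD, n = 6), from 26.1 to 52.4 with a median of 37.2, and colon 36.9 ± 11.0 (SD, n = 6), from 24.4 to 47.8 with a median of 38.9. These ranges overlapped throughout, and the log2 difference of colon minus cerebellum was -0.07 (95% interval -0.41 to 0.27, adjusted *P* = 0.788), a sign that turned under several alternatives. Without both colon libraries carrying small intestine markers it was -0.28 (95% interval -0.62 to 0.061, adjusted *P* = 0.147). Brain followed with 19.7 ± 4.42 FPKM (SD, n = 6), and colon was 1.69-fold above it (95% interval 1.33 to 2.14, adjusted *P* = 0.000277). Ovary, testis and heart held 8.24 ± 1.59 (SD, n = 3), 5.86 ± 0.298 (SD, n = 3) and 4.61 ± 1.25 FPKM (SD, n = 5).

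The choroid plexus, an epithelium that secretes cerebrospinal fluid, also uses *Slc12a2*, and its markers divided the brain libraries as this gene did. The 6 listed choroid plexus genes summed to 1016, 1594 and 461 FPKM in female brain 1, female brain 3 and male brain 1, which had 25.7, 21.4 and 23.3 FPKM of *Slc12a2*. In the other 3 brain libraries the list summed to 28.3 to 50.1 and *Slc12a2* was 14.3 to 17.97 FPKM, without overlap. In cerebellum the list and the gene did not run in the same order. The list summed to 3061, 3960 and 3317 FPKM in female cerebellum 1 to 3 and to 1046, 3917 and 2619 in the male libraries, where *Slc12a2* was 27.6, 49.6 and 52.4 FPKM and 26.1, 33.8 and 40.6. Other lists divided the libraries as well. Neuron and glia genes, drawn up for the enteric nervous system, summed to 330 to 459 FPKM in the same 3 brain libraries and to 231 to 254 in the other 3, and in cerebellum to 518, 549 and 598 FPKM in the 3 libraries highest for *Slc12a2* (female 2, female 3 and male 3) and to 274 to 374 in the others. In the same 3 brain libraries the red cell list was also higher (653 to 1542 FPKM against 310.1 to 620.4), as were cerebellum markers (7.17 to 17.1 against 3.30 to 5.38) and the oviduct list (5.02 to 8.13 against 2.37 to 4.50). In the 3 cerebellum libraries highest for *Slc12a2*, brain markers were higher (619 to 786 FPKM against 439 to 513) and cerebellum markers lower (1090.4 to 1258 against 1835 to 2028). The enteroendocrine and tuft cell list was higher in these cerebellum libraries (57.8 to 64.2 against 46.8 to 52.1) but lower in the 3 brain libraries (93.1 to 99.3 against 106 to 121). These libraries were grouped by the level of *Slc12a2* itself. Other marker lists are not given, some of which overlapped, as the immune cell, endothelium and smooth muscle lists did in brain. How often a list or gene divides the libraries in this way was not counted. The part of cell types or dissection in these levels was not tested. The FPKM ratio of *Cftr* to *Slc12a2* was 0.571 to 0.961 in colon, within which testis lay (0.666 to 0.857) and which ovary overlapped (0.778 to 1.47), against 0.0589 to 0.205 in heart, 0.0104 to 0.0307 in brain and 0.0018 to 0.0064 in cerebellum.

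**Figure D2:**
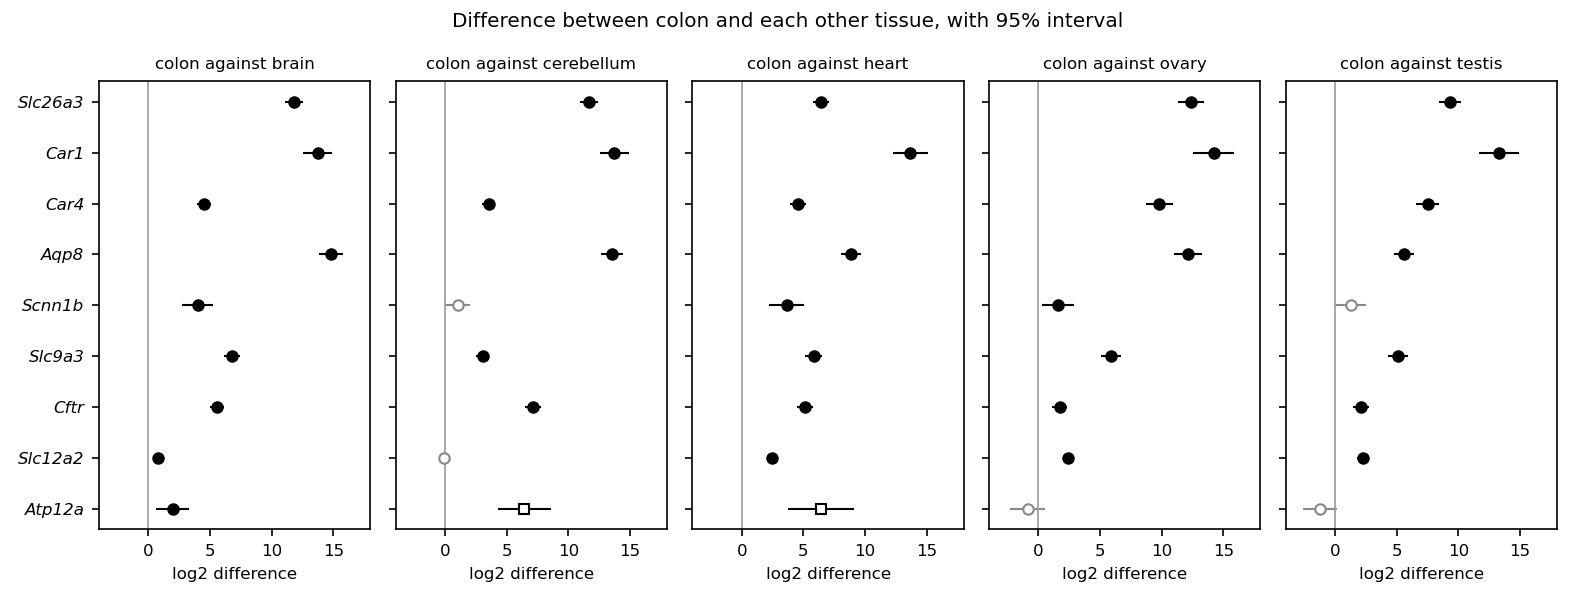
Log2 difference between colon and each of the 5 other tissues (horizontal axis) for the 9 genes (vertical axis), with 95% intervals from the edgeR fit. Filled points were called at an adjusted P under 0.05, open grey points were not, and open squares mark Atp12a against the 2 tissues where it had 0 counts, so that the fitted value is not a measured size. Slc12a2 sits at -0.07 against cerebellum, and Atp12a at -0.87 and -1.20 against ovary and testis.

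Tau, an index that is 0 for even expression and 1 for expression in a single tissue, ordered the members by how much of their expression lay in the leading tissue. It was 0.9999 for *Car1*, 0.998 for *Slc26a3*, 0.996 for *Aqp8*, 0.968 for *Car4*, 0.965 for *Slc9a3*, 0.879 for *Cftr*, 0.741 for *Scnn1b*, 0.715 for *Atp12a* and 0.607 for *Slc12a2*. The leading tissue was colon for all but *Slc12a2* (cerebellum) and *Atp12a* (ovary). For *Atp12a* the ovary mean held 1 high library, ovary 2 (0.520 FPKM against 0.0690 and 0.213), and its range overlapped that of testis (0.138 to 0.315). Tau was a description of tissue means and was not tested.

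Within colon 5 of 9 members were highest in female colon 2. *Car1*, *Car4*, *Slc26a3* and *Slc9a3* reached 14771, 382, 689 and 28.5 FPKM there and *Atp12a* 0.219 on 15 counts, and *Slc26a3* lay well above the 395 to 495 of the other colon libraries. *Aqp8* was highest in female colon 3 with 833 FPKM and lowest in female colon 1 with 361. *Slc12a2* was 45.6 to 47.8 FPKM in female colon 1, male colon 1 and male colon 3 and 24.4 to 32.2 in the other 3, without overlap, and *Cftr* was 26.5 to 29.8 in the same 3 libraries and 15.6 to 24.1 in the others. *Scnn1b* gave the same division, with 0.513 to 0.844 FPKM on 16 to 42 counts in these 3 libraries and 0.206 to 0.323 on 8 to 16 counts in the others. *Car4* and *Aqp8* divided the other way, with 216 to 284 and 361 to 516 FPKM in these 3 libraries and 289 to 382 and 519 to 833 in the others, the gap being narrow for both. Of these 3, female colon 1 and male colon 3 had the highest small intestine sums (495 and 403 FPKM), whereas male colon 1 had the lowest, 33.3. The crypt stem and dividing cell list summed to 45.1, 48.1 and 39.5 FPKM in the same 3 libraries, beside 26.8 to 38.8 in the others. The part of cell types or segments in these levels was not tested. The groups of libraries were seen in the data and are not groups of the study, so no test was made between them. How many of all genes divide in this way was not counted, so the division is not shown to be particular to the members. Female and male colon, also 3 against 3 libraries, were apart in 13.4% of all genes.

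Spread over the 6 colon libraries, as the SD in percent of the mean, was 20.4 for *Slc26a3*, 22.2 for *Cftr*, 22.7 for *Car4*, 23.8 for *Car1*, 29.8 for *Slc12a2*, 30.2 for *Aqp8* and 46.9 for *Slc9a3*. For *Scnn1b* (51.3) and *Atp12a* (64.9) counting error adds to it. Dividing each gene by the epithelial sum of its library lowered the spread of *Car1* to 22.0, *Car4* to 19.0 and *Aqp8* to 23.5, but raised that of *Slc26a3* to 28.7, *Cftr* to 38.4 and *Slc12a2* to 46.1. Without female colon 1 and male colon 3, mean colon levels were 525 ± 111 FPKM for *Slc26a3*, 607 ± 171 for *Aqp8*, 21.4 ± 4.87 for *Cftr* and 31.8 ± 9.85 for *Slc12a2* (SD, n = 4).

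**Figure D3:**
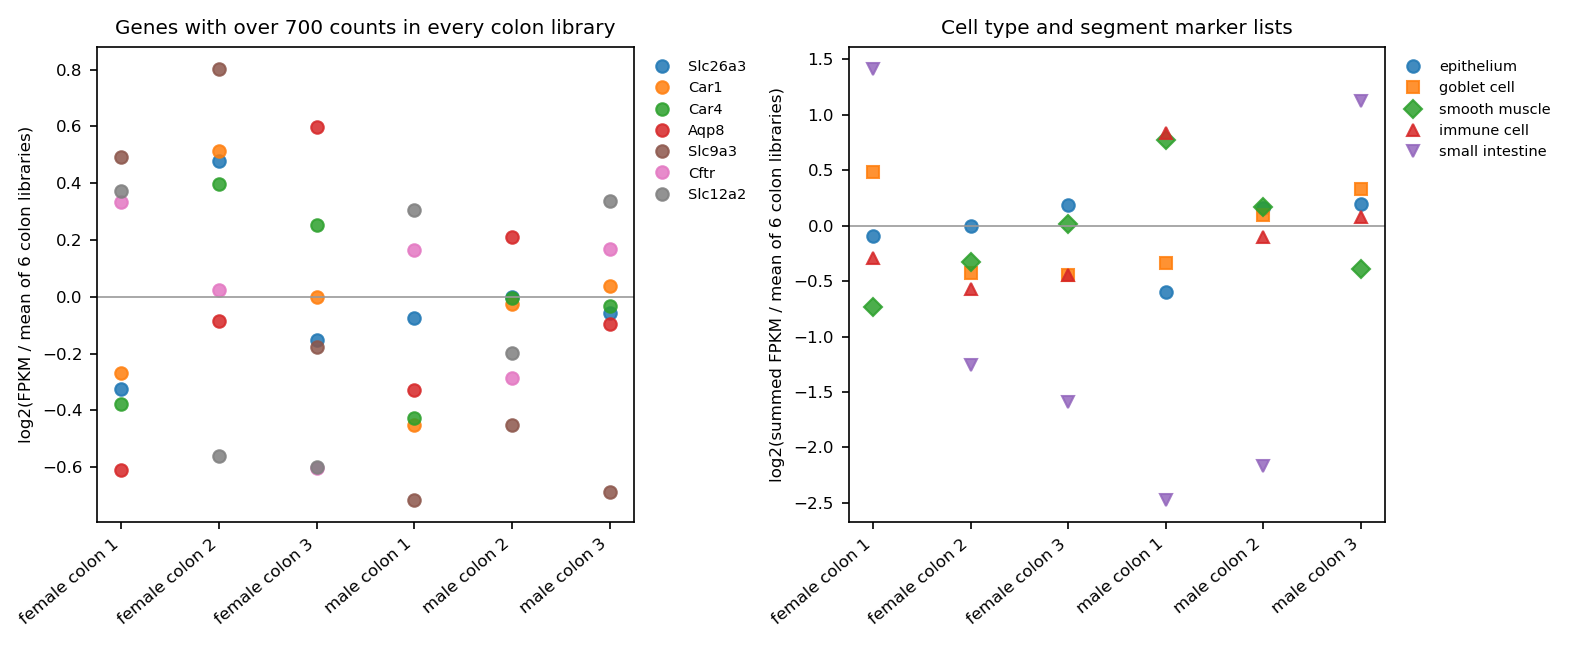
Left, the 7 genes with the most counts in each of the 6 colon libraries (horizontal axis), as log2 of FPKM over the mean of the 6 libraries. Right, the summed FPKM of 5 marker lists on the same scale. Slc12a2 and Cftr are above their mean in female colon 1, male colon 1 and male colon 3, and Cftr is also just above it in female colon 2. Small intestine markers are highest in female colon 1 and male colon 3 (495 and 403 FPKM).

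Both sexes were sampled, and sex was the only condition within colon. No member was called different between male and female colon, where 0.324% of all genes tested were called (97 genes, with 2648 at an unadjusted *P* under 0.05). *Slc9a3* was the nearest. Female libraries held 22.96, 28.5 and 14.5 FPKM and male libraries 9.94, 12.0 and 10.1, so that every female library was above every male library, as the sexes were apart in 13.4% of all genes. The log2 difference of male minus female was -1.19 (95% interval -1.87 to -0.52, unadjusted *P* = 0.00126, adjusted *P* = 0.164). It was -1.24 with DESeq2 (adjusted *P* = 0.0239), and adjusted *P* ran from 0.0239 to 0.547 over the alternatives. Without female colon 1 and male colon 3 the difference was -1.18 (adjusted *P* = 0.381).

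For the other members the sexes overlapped. The 95% intervals of male minus female, on the log2 scale, were -0.87 to 0.37 for *Slc26a3*, -1.39 to 0.57 for *Car1*, -1.13 to 0.28 for *Car4*, -0.92 to 0.41 for *Aqp8*, -0.74 to 0.56 for *Cftr* and -0.27 to 0.70 for *Slc12a2*. For *Scnn1b* (-0.81 to 1.98) and *Atp12a* (-2.90 to 0.67) the counts allow only wide intervals. Whether the sex difference in colon differed from that in brain, cerebellum and heart was tested as an interaction. No member was called, beside 0.0602% of all genes (18 genes, with 2132 at an unadjusted *P* under 0.05). DESeq2 also called no member. The value for *Slc9a3* was -1.25 (SE 0.41, adjusted *P* = 0.450), and *Atp12a* could not be estimated because of its zeros.

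Beside the members, 42 other genes of colonic salt and water handling were followed, of which all but *Aqp3* were tested. Against the mean of the other tissues 35 were called higher in colon, 1 lower and 5 not (28.2% of all genes were higher), with a median log2 difference of 2.74. The 4 with the smallest adjusted *P* were *Gucy2c*, *Guca2a*, *Slc5a8* and *St14*. *Gucy2c*, the receptor through which guanylin drives chloride secretion, had a log2 difference of 9.78 (SE 0.16) and a colon level of 60.2 ± 12.4 FPKM (SD, n = 6). *Guca2a*, guanylin itself, had 13.56 (SE 0.28) and 1209 ± 385 FPKM (SD, n = 6), more per length than any member but *Car1*. *Slc5a8*, a sodium-coupled uptake carrier of short-chain fatty acids, had 10.12 (SE 0.25), and *St14*, the membrane protease matriptase, had 8.14 (SE 0.23).

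By role, 5 of 7 apical absorptive genes, 7 of 7 secretory and potassium channel genes, 7 of 7 basolateral transporters, 5 of 8 tested carbonic anhydrases and aquaporins and 11 of 12 scaffolds and regulators were called higher. The basolateral genes had the smallest median, 1.12. Against brain 2 of 7 were called higher, near the 29.6% of all genes, and 2 lower, where 11581 of 29911 genes were. *Atp4a*, the gastric relative of *Atp12a*, was the gene called lower (log2 difference -1.86, SE 0.47, adjusted *P* = 0.00117), with colon at 0 to 0.181 FPKM. The partners of *Scnn1b* were named after their values were seen. *Scnn1a*, the alpha subunit, held 5.76 ± 1.16 FPKM in colon (SD, n = 6), and *Scnn1g*, the gamma subunit, 0.132 ± 0.0641 in colon and 0.458 ± 0.141 in cerebellum (SD, n = 6 each). The beta and gamma subunits were therefore both scarce next to alpha in these colon libraries.

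**Figure D4:**
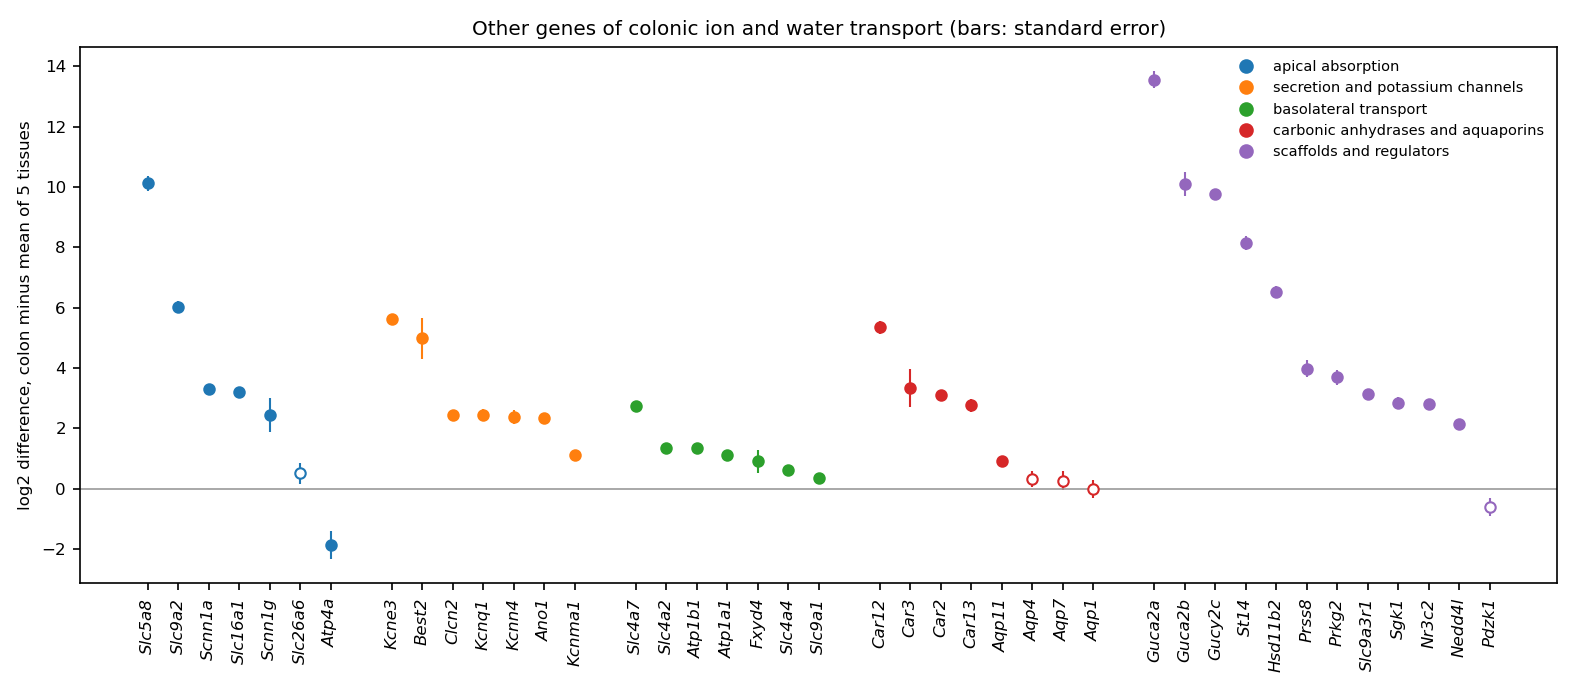
Log2 difference between colon and the mean of the other 5 tissues (vertical axis) for the tested genes of colonic ion and water transport that are not members, grouped by role (colours), with standard errors. Filled points were called at an adjusted P under 0.05. Guca2a (13.56), Slc5a8 (10.12) and Gucy2c (9.78) stand near the top, and Atp4a (-1.86) is the gene called lower.

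The genes whose log2(CPM + 1) followed each member most closely over the 29 libraries were found among 16557 or 16558 protein-coding genes. Such correlations mostly restate the contrast between tissues and are given as descriptions. For *Car1* they were *Lypd8* (*r* = 0.998) and *Clca4a* (0.998), for *Aqp8* *Gcnt3* (0.991) and *Dio1* (0.990), and for *Slc26a3* *Scin* (0.987). *Cftr* was followed by *Hao2* (0.973) and *Epcam* (0.971), *Slc9a3* by *Muc3a* (0.970) and *Pkp3* (0.956), *Slc12a2* by *Elovl7* (0.965) and *Slc20a1* (0.949), and *Car4* by *Cideb* (0.958) and *Gramd3* (0.954). The scarce genes had weaker likeness, *Scnn1b* with *Galnt7* (0.868), and *Atp12a* with *Gsta2* (0.858) and *Mybl2* (0.857). The number of genes with *r* over 0.95 was 299 for *Car1*, 149 for *Aqp8*, 82 for *Slc26a3*, 19 for *Cftr*, 3 for *Car4*, 2 for *Slc9a3*, 1 for *Slc12a2* and 0 for *Scnn1b* and *Atp12a*.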

How the data were processed

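Total RNA of 10 groups was depleted of ribosomal RNA and sequenced as strand-specific libraries on an Illumina instrument (29 libraries). Iso-seq (6 flow cells) was used only as annotation. The deposited values are raw counts of reads per gene, which the authors made from uniquely mapped reads on their Iso-seq loci combined with ENSEMBL genes. The submitters' processing notes list HISAT2 2.0.5, featureCounts 1.6.3, FastQC 0.11.8 and MultiQC 0.9, and mm10. All 29 count columns were used.

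FPKM was computed here from these counts, the library total and the union of exons. Groups were compared by the quasi-likelihood test of edgeR (edgeR 4.0.16, limma 3.58.1, R 4.3.3), with TMM, filterByExpr, a mean for each of the 10 groups and Benjamini-Hochberg adjustment over 29911 genes, at a threshold of 0.05. In the mean over tissues, each tissue weighed the same. The procedure was tested on simulated data. DESeq2 1.42.0 served as an alternative. Total counts of 11742417 to 36194255 set the precision, and floors of 3 counts cover counting error only. Replicate pairs were compared (28 pairs) and 0 were identical.

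The members and gene lists were chosen with earlier results of these data known. Named were the members, the other transport genes with the 4 smallest adjusted *P* per direction, and for each member the 2 protein-coding genes (highest tissue mean of at least 1 FPKM) nearest by correlation, of which some are not reported here. The *Scnn1b* partners were added after their values were seen.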

Additional observations from a re-analysis of the deposited data

Results flagged for a closer look

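In groups of 4 to 10 libraries, a highest or lowest value far from the rest for its group's range was looked for in 34 gene and tissue combinations, and 6 were found. Chance alone gives such a value in about 1 of 20. In colon, *Slc26a3* was 689 FPKM in female colon 2, against 395 to 495 in the other colon libraries. In heart, female heart 3 was highest for *Slc26a3* (6.66 FPKM, against 2.98 to 3.72) and *Cftr* (1.34, against 0.295 to 0.455) and lowest for *Car4* (4.89, against 8.18 to 8.94). The same library had a higher immune cell sum (94.2 FPKM, against 12.6 to 15.3) and *Krt19*, while *Epcam* was at most 0.0437 FPKM in heart, and it had lower sums of heart (12550, against 24542 to 35065), smooth muscle (714, against 1173 to 1472) and red cell markers (6294, against 7903 to 22155). The part of these cells in its values was not tested. In brain, *Car1* was 2.01 FPKM in female brain 1, against 0.261 to 0.869, and that library also had the highest red cell sum of the brain libraries, 1542 FPKM against 310.1 to 912. In brain, *Scnn1b* was 0.0839 FPKM in male brain 2 on 8 counts, against 0 to 0.0311.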

How the results depend on the processing

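The count of 9 members called higher against the mean of the other tissues was the same under every alternative run, the replicate block and the weighting of groups included. *Slc12a2* against cerebellum turned sign, to 0.15 with the size factors of DESeq2 in edgeR, 0.15 with DESeq2, 0.0017 without the filter and 0.015 with a block on the library code, and ran from -0.23 to 0.10 when each library was left out. Leaving out each library, *Atp12a* against ovary ran from -1.32 to 0.052 (positive without ovary 2), and male minus female in colon from -0.43 to 0.076 for *Slc26a3* (positive without female colon 2), from -0.52 to 0.12 for *Aqp8* (positive without female colon 3) and from -0.30 to 0.084 for *Cftr* (positive without female colon 1 or male colon 2). *Scnn1b* against cerebellum was called with the size factors of DESeq2 (1.23, adjusted *P* = 0.0296), with DESeq2 and without any of 4 single libraries, and against testis without the filter (adjusted *P* = 0.0455), with DESeq2 and without female heart 1 or 3. Between male and female colon DESeq2 called 1 member, *Slc9a3*. All genes called for sex in colon, 97 as reported, were 38 with colon libraries only, 405 with DESeq2 and 43 to 157 when each library was left out (157 without female heart 3, 43 without male colon 1 and 58 without male colon 2). For the interaction, 18 as reported, they were 134 with DESeq2 and 3 to 40 when each library was left out. The causes were not tested.

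The replicate block left 9 members called higher against the mean of the other tissues and moved the genes called for sex in colon to 82. Deviations of libraries with the same replicate number in different groups correlated from -0.37 to 0.26 (median -0.0013, 52 pairs). For libraries with different replicate numbers the range was -0.40 to 0.44 (median -0.00014, 104 pairs). Whether the replicate numbers pair libraries of the same animal was not tested. The library code is a number in the labels whose leading digit recurs over tissues. Its last digit follows tissue except in female colon 1, male colon 3 and female heart 3, which also stood apart in the marker lists. The labels do not say what the code stands for, and it may mark an animal. Female colon 1 and female colon 3 share a leading digit, so both may come from the same animal. The colon SDs and the sex comparison counted them as separate libraries. Libraries with the same leading digit (codes of a single digit as 1 set) correlated from -0.22 to 0.39 (median 0.039, 23 pairs). A block on it left 9 members called higher, and it could not be fitted for ovary, testis or sex in colon. The setting without female colon 1 and male colon 3 was chosen after seeing the data. Depth limits *Scnn1b* and *Atp12a*, with at most 42 and 15 counts per colon library.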

Other observations

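Of the testis markers *Prm1*, *Tnp1* and *Acrv1*, *Acrv1* had 0 counts in every colon library, and the list summed to 9.74 FPKM in female colon 1, 6.51 in female colon 3 and 5.15 in male colon 3, to 0 in male colon 2 and to 0.205 and 0.642 in female colon 2 and male colon 1, against 0 to 0.758 in the other tissues but testis and 8398 to 9344 in testis. Pancreas markers summed to at most 0.390 FPKM in colon and epididymis markers to at most 0.177. In testis 1, 2 and 3 epididymis markers summed to 37.8, 2.22 and 0.421 FPKM, and *Atp12a* ran in the same order. The part of epididymis in the testis level of *Atp12a* was not tested. Oviduct markers summed to 0.342 to 1.15 FPKM in colon and 2.03 to 2.85 in ovary, and were higher in testis (16.9 to 23.9) and cerebellum (7.76 to 9.58). Within ovary they summed to 2.03, 2.45 and 2.85 FPKM in ovary 1, 2 and 3, beside 13.3, 6.07 and 7.19 FPKM of *Cftr*. The part of oviduct in the ovary level of *Cftr* was not tested.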
